A study of Drosophila melanogaster with 3 samples.

Results

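The genes of the Dpp pathway, the bone morphogenetic protein (BMP) pathway of Drosophila, were followed in the binding profile of a GFP-tagged protein. The 10 members were chosen by name: the ligand genes dpp and gbb, the receptor genes tkv, sax and put, the Smad genes Mad and Med, the nuclear factor genes shn and brk, and the inhibitory Smad gene Dad. Each symbol matched 1 of 13945 protein-coding genes. Binding was profiled by chromatin immunoprecipitation with sequencing (ChIP-seq) in whole Drosophila melanogaster embryos aged 12 to 24 hours, with males and females pooled. That age is the one in the source names, whereas the separate age field holds a value that cannot be the age of an embryo. The flies carried a transgene for CG12071 with GFP fused to its C-terminal end, and chromatin was sonicated to fragments of 200 to 800 bp. The labels give the antibody target as CG12071 and number 3 biological replicates of 1 group, with no second genotype, age or treatment, so no conditions could be compared. The description lines call the samples input controls, whereas the antibody and control fields describe immunoprecipitations, and they were treated as such. Embryos were whole, so the cells in which a site was occupied cannot be told apart.

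In this pathway the secreted ligands Dpp and Gbb bind complexes of type I receptors (Tkv and Sax) and a type II receptor (Put). The type I receptor phosphorylates Mad, which enters the nucleus with Med and, with the zinc-finger protein Shn, shuts off brk, a gene for a repressor of Dpp targets. Dad is induced by the pathway and restrains it. In the embryo the pathway patterns the dorsal side, the gut and the tracheae and acts again in dorsal closure.

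A list of 4261 peaks, thresholded by the authors with the irreproducible discovery rate, is used below, and its entries are called thresholded peaks. Each replicate and the pooled alignments also had a longer list of 30000 entries that reaches into background. The thresholded peaks were the 4261 entries of the pooled list with the highest signal values, whatever their rank in each replicate. Entries are compared by rank, 1 being the entry with the highest signal value in its list. A thresholded peak is called supported by a replicate when an entry among the 4261 strongest of that replicate has its summit within 100 bp. Read depth is unknown. At a q-value of 0.05 or less there were 13828 entries in replicate 1, 12616 in replicate 2 and 4015 in replicate 3, so ranks near 4261 in replicate 3 belong to weak entries. The pooled list had 10242 such entries, so pooled entries ranked far beyond that did not reach this q-value.

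Of the 10 genes, 8 had a thresholded peak with its summit inside the gene or within 2 kb, and put and sax had none. Over all protein-coding genes this share was 27.6%. Peaks were unevenly spread: shn held 13 of the 25, gbb and brk had 1 each, and dpp, tkv, Mad, Med and Dad had 2 each. Of all genes 9.56% had 2 or more such peaks, as did 6 of the members. The members' median span of 10131 bp was above the 2166 bp of all genes, and longer genes were more often called. Among genes under 5 kb 20.7% had a peak, and of gbb, sax, Med and brk in that class 3 did. The share was 37.0% from 5 to 10 kb, where put had none, and 51.3% from 10 to 20 kb, where Mad and Dad both had peaks. It was 60.3% from 20 to 50 kb, the class of dpp, and 66.4% above, where tkv and shn both had peaks.

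Thresholded summits at the members' own start sites were about as frequent as over all genes. A summit inside the gene was found for 5 members (dpp, tkv, Mad, shn and Dad), against 12.3% of all genes. These 5 are the members longer than 10 kb, and that share was not split by gene span. A summit within 500 bp of an own transcription start site (TSS) was found for tkv and shn, against 13.4% of all genes. The members have 23 distinct TSSs, of which 3 had a thresholded summit within 500 bp (12.8% of all TSSs of protein-coding genes). Of the 25 peaks, 19 had their summit in introns, 1 in an exon, 4 upstream of the gene and 1 downstream. The peaks at gbb and Med lay at start sites of neighbouring genes. When each summit was given only to the gene that holds it or lies nearest, 5 members remained, namely those with a summit inside. The share was 18.2% of all genes, again of any span.

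**Figure D1:**
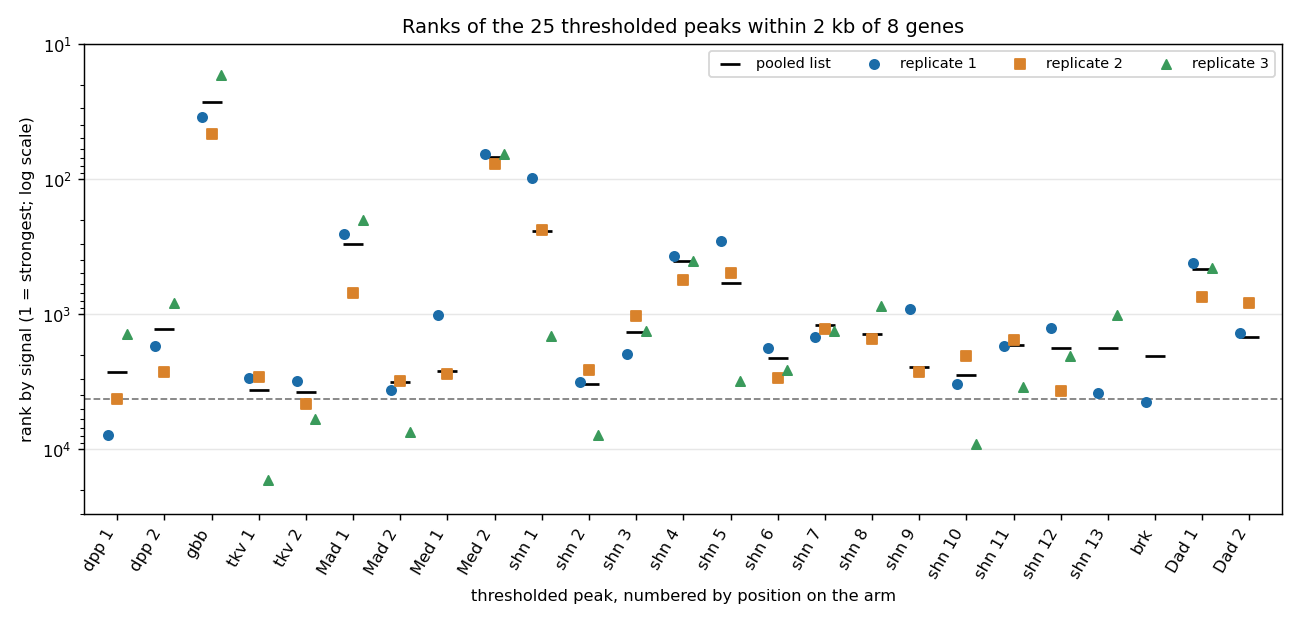
Rank of each of the 25 thresholded peaks (x axis, by gene and position on the arm) in the pooled list and in each replicate (y axis, log scale, strongest at the top). The dashed line marks rank 4261, and a replicate with no entry within 100 bp has no point. The gbb peak and the second Med peak rank from 17 to 77 in every list, whereas 7 peaks are at or below rank 4261 in at least 1 replicate that has an entry.

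The gene dpp encodes the main BMP ligand of the fly and lies on 2L from 2428372 to 2459823 on the plus strand (FBgn0000490, dm6), with 4 TSSs. Its stronger peak had its summit in intron 1 of the transcript dpp-RA, 5272 bp downstream of the TSS of that transcript. It ranked 1297 in the pooled list and 1731, 2678 and 826 in replicates 1, 2 and 3 (mean 1745 ± 926, SD, n = 3). All 3 replicates supported it, with replicate 3 placing it highest. The other peak lay 1745 bp upstream of that TSS and 1254 bp from the TSS of lncRNA:CR44912, which is transcribed from the opposite strand. It ranked 2673 in the pooled list and 7847, 4226 and 1392 in the replicates, so replicate 1 did not support it.

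None of the 4 dpp start sites had a thresholded summit within 500 bp. The closest to the threshold was the start of dpp-RC, with a pooled entry 51 bp away at rank 6146. Replicates 1 and 2 had entries 16 and 51 bp from that start at ranks 6057 and 4538, and the nearest of replicate 3 was 268 bp away at rank 22633. The upstream start of dpp-RA had an entry 104 bp away at pooled rank 6685, and that of dpp-RE an entry 5 bp away at pooled rank 14782. At the start of dpp-RB the pooled list had no entry, and replicate 3 had one 25 bp away at rank 28440. In the pooled list, entries below the threshold thus lay at 3 of the 4 starts. The window of 201 bp around the summit of the intron peak is shown because it is the dpp peak supported in all 3 replicates.
dpp chr2L:2433544-2433744 (+): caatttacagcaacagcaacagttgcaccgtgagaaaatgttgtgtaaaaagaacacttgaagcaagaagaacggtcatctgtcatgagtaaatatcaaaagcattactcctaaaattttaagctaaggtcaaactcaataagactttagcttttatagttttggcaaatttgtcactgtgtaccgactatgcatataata
None of the 10 motifs searched, which are listed with the sequence comparison, occurs in it.

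The gene gbb encodes a second BMP ligand, broadly expressed and known for its role at the neuromuscular junction. It lies on 2R from 23851562 to 23853247 on the plus strand (FBgn0024234) with 1 TSS. Its peak was the strongest of all 25, at pooled rank 27 and at ranks 35, 46 and 17 in the replicates (mean 32.7 ± 14.6, SD, n = 3). The summit lay 1165 bp upstream of gbb but 96 bp from the TSS of eIF6, a gene for a factor of ribosome assembly, 67 bp from that of asRNA:CR45928 and inside the gene ytr. Within 500 bp of the gbb TSS no list, pooled or replicate, had an entry. The strongest peak near a member was thus at the starts of its neighbours.

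Of the receptor genes, tkv carried 2 weak peaks, and sax and put had none that passed the threshold. The type I receptor gene tkv lies on 2L from 5219000 to 5271384 on the minus strand (FBgn0003716) and has 4 TSSs. A thresholded summit lay 15 bp upstream of the most downstream start, that of tkv-RD, and within intron 2 of the 3 longer transcripts. It ranked 3800 in the pooled list and 3125, 4616 and 5939 in the replicates, so only replicate 1 supported it. The other peak was 3688 bp downstream of the tkv-RD start, in intron 1 of that transcript, at pooled rank 3620. Its ranks were 2950 and 2899 in replicates 1 and 2 and 16805 in replicate 3, and replicates 1 and 2 supported it. Neither tkv peak was supported in all 3 replicates.

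The start of tkv-RB had an entry 78 bp away at pooled rank 13165, and neither the start of tkv-RC nor that of tkv-RA had a pooled entry within 500 bp. With its 2 thresholded peaks counted, tkv had 25 entries in the pooled list, 11 of them at a q-value of 0.05 or less. Of those below the threshold, the 2 nearest to it were intronic, with pooled ranks of 4573 and 4938. The latter ranked 1721 in replicate 3, and 8557 and 8765 in replicates 1 and 2. The window at the tkv-RD start is shown because it is the only thresholded tkv peak at a promoter. Capitals mark overlapping GAGA repeats, beginning 52 bp past the summit.
tkv chr2L:5237277-5237477 (+): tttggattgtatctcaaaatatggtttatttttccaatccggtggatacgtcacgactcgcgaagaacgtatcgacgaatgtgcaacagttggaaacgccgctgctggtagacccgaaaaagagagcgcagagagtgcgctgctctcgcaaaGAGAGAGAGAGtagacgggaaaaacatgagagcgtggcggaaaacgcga

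The type I receptor gene sax lies on 2R from 7806484 to 7810067 on the plus strand (FBgn0003317). Its 2 TSSs are 113 bp apart. The replicates differed here: replicate 1 had an entry at rank 1820 and replicate 2 one at rank 2946, with summits 724 and 699 bp upstream of sax, whereas replicate 3 had no entry within 2 kb of sax. These summits lay 194 and 219 bp from the TSS of the neighbouring gene Nop17l. The pooled list had no entry at that place, and its strongest entry near sax ranked 26204, with the summit 21 bp upstream of the gene. With a flank of 5 kb sax had 1 thresholded peak.

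The type II receptor gene put, on the minus strand of 3R, spans 14619030 to 14625703 (FBgn0003169) and has 1 TSS. Its strongest pooled entry ranked 13347 and lay 42 bp upstream of put and 10 bp from the TSS of His4r, a histone H4 gene on the opposite strand. It ranked 5190 in replicate 1. Replicate 2 had an entry at rank 17872, 110 bp upstream of put, and replicate 3 none within 2 kb. Every entry at put was thus weaker than rank 4261.

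**Figure D2:**
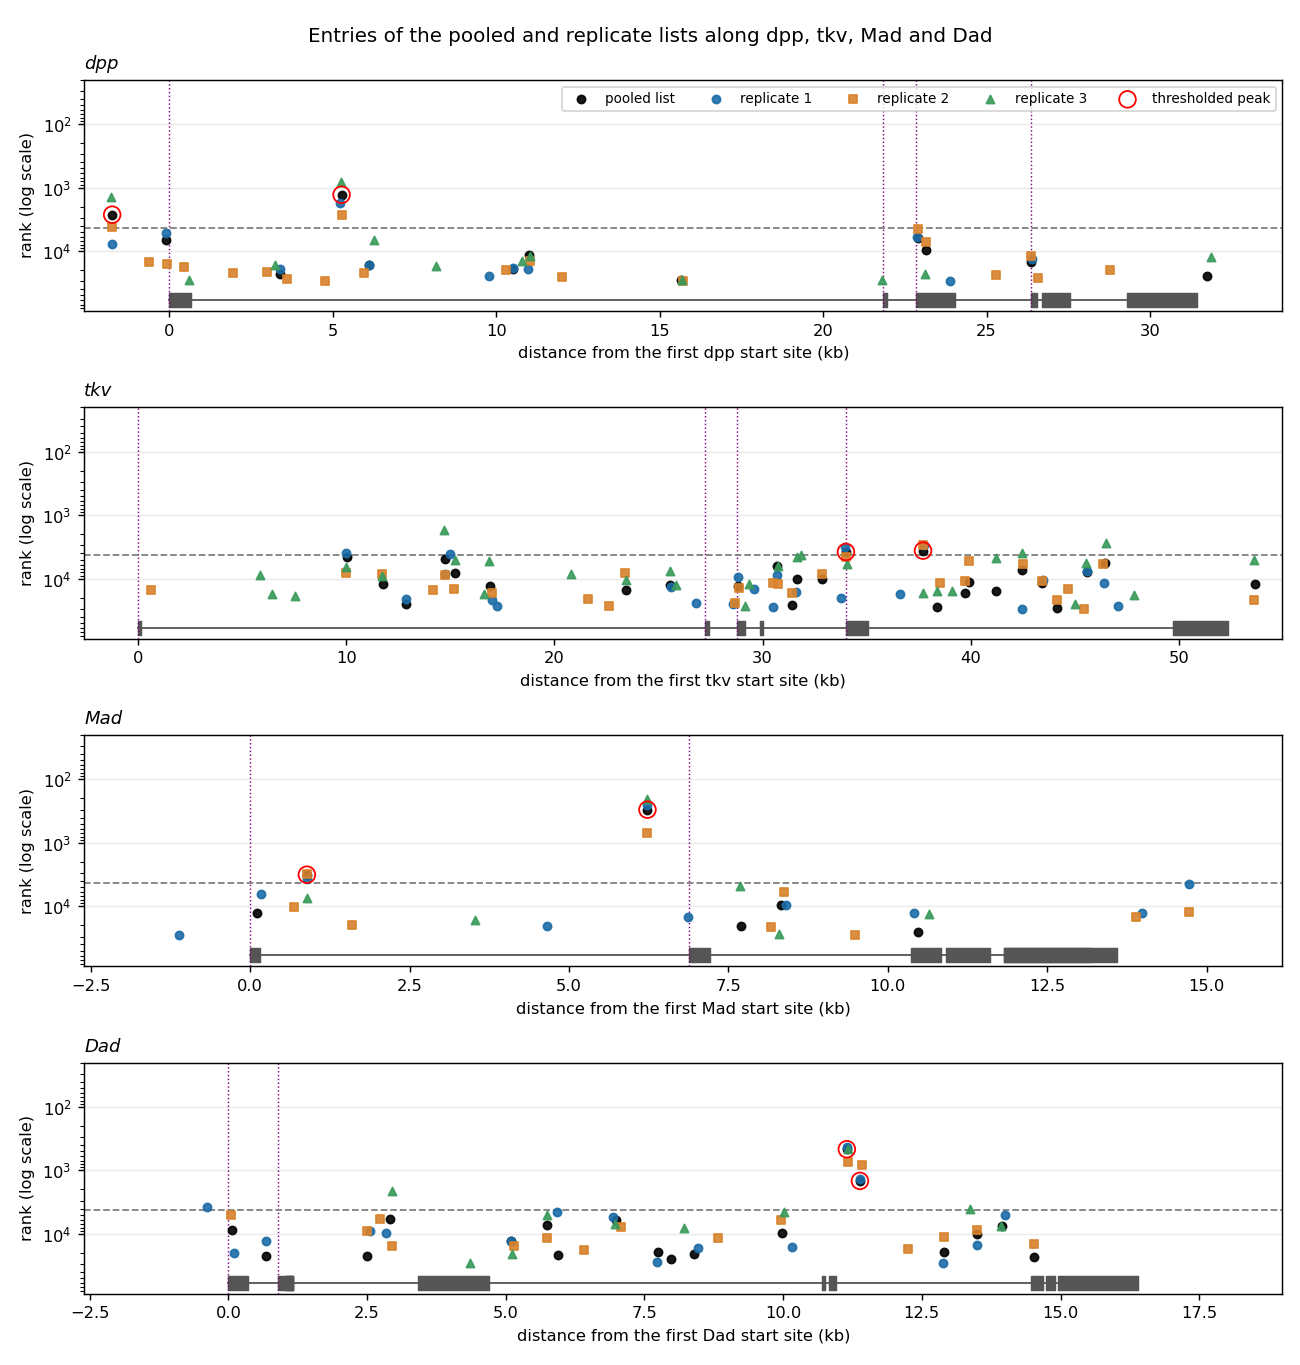
Entries of the pooled list and of the 3 replicates along dpp, tkv, Mad and Dad, by distance from the first TSS of each gene in the direction of transcription (kb) and by rank (log scale, strongest at the top). Red circles mark thresholded peaks, dotted lines TSSs, grey boxes exons and the dashed line rank 4261. The Mad peak 6231 bp from the first TSS and the pair of Dad peaks at 11148 and 11384 bp stand above the other entries of the same gene. The thresholded peaks of tkv lie close to the threshold.

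Of the Smad genes that transduce the signal, Mad had a strong peak inside the gene. The strong peak near Med lay outside it, at the start of a neighbouring gene. The gene Mad, for the receptor-regulated Smad, lies on 2L from 3146056 to 3159643 on the minus strand (FBgn0011648). Its stronger peak had its summit in intron 1 of Mad-RA, 659 bp upstream of the internal start of Mad-RB. It ranked 301 in the pooled list and 256, 696 and 201 in the replicates (mean 384 ± 271, SD, n = 3), and all 3 supported it. The other peak was in the same intron, 891 bp downstream of the Mad-RA start, at pooled rank 3181 and at 3666, 3138 and 7510 in the replicates, so replicate 3 did not support it. At the Mad-RA start itself the pooled list had an entry 105 bp away at rank 12640, and at the Mad-RB start it had none. Both sites are therefore beside, and neither at, an annotated start.

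The sequences of both Mad peaks are shown since the weaker holds a Mad site, the element GCCGNCG to which the encoded protein can bind, beginning 3 bp past the summit (capitals). The stronger, given first, holds no searched motif.
Mad chr2L:3153312-3153512 (+): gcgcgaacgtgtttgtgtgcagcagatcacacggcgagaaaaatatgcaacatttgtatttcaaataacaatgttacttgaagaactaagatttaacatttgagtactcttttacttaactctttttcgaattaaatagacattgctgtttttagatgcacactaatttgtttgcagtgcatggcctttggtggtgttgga
Mad chr2L:3158652-3158852 (+): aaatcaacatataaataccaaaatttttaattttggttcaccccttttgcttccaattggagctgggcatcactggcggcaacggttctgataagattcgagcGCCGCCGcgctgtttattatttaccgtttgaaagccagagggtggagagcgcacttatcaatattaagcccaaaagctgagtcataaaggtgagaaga

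The gene Med, for the common-partner Smad that joins Mad, lies on 3R from 31611046 to 31615375 on the plus strand (FBgn0288966), with 1 TSS. A peak 800 bp downstream of its end was among the strongest of the series, at pooled rank 69 and at 65, 77 and 65 in the replicates (mean 69 ± 6.93, SD, n = 3). Its summit lay 15 bp from a TSS of Mnat9 and 128 bp from that of CG1792. A second peak lay 1190 bp upstream of Med, inside the cyclin gene CycG and 41 bp from one of its TSSs. It ranked 2641 in the pooled list and 1013 and 2758 in replicates 1 and 2, and replicate 3 had no entry within 100 bp. Within 500 bp of the Med TSS neither the thresholded nor the pooled list had an entry. Replicates 1 and 2 had weak ones there, at ranks 19205 and 9136. The window of the Mnat9 peak is shown as the strongest within 2 kb of Med. Its capitals mark the word AATATTT, beginning 19 bp before the summit.
Med chr3R:31616075-31616275 (+): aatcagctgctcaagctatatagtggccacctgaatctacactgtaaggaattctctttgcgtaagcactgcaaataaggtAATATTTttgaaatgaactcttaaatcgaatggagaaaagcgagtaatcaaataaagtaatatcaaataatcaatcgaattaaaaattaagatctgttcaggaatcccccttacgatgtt

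The most peaks of any member, 13, were at shn, which encodes the large zinc-finger partner of the Smads. The gene lies on 2R from 11159086 to 11217394 on the plus strand (FBgn0003396), with 5 TSSs, and all of its peaks were inside it. Their density was 2.09 thresholded peaks per 10 kb of gene and flanks, against 0.318 per 10 kb of the arms, 0.235 in all genes of 50 kb or more and 0.355 in tkv, which is of similar span. Of the 307 genes of 50 kb or more, 0 had a higher density, and 2 genes of any length, sbb and bun, had more peaks (16 and 15). Some genes under 50 kb were denser than shn. Among them were Med, a short gene with 2 peaks and 2.40 per 10 kb, and Raf, tara and CHES-1-like, with 12, 11 and 11 peaks. Without shn the members had 12 peaks, or 0.709 per 10 kb. For all protein-coding genes with their flanks the density was 0.418, and in the span classes below 50 kb it was 0.414 to 0.568.

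The shn peaks lay between 14526 and 48113 bp from the first TSS. The upstream start of shn-RE had no entry within 500 bp in any list. At the second start, that of shn-RD and shn-RF, a peak had its summit 191 bp upstream and ranked 242 in the pooled list. Its ranks were 98, 237 and 1450 in the replicates (mean 595 ± 744, SD, n = 3), much lower in replicate 3 than in the others. The fourth start, of shn-RB, had a peak 28 bp downstream, in exon 1 of that transcript, at pooled rank 1706 and at 1727, 1560 and 3448 in the replicates (mean 2245 ± 1045, SD, n = 3). The starts of shn-RA and shn-RC had pooled entries 210 and 164 bp away at ranks 17973 and 9584 only. Thus 2 of the 5 alternative promoters had thresholded peaks, and both were supported in all 3 replicates.

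The other 11 shn peaks were intronic in every transcript that spans them. The strongest of them lay 1332 bp downstream of the shn-RA start, in intron 1, at pooled rank 402 and at 373, 561 and 407 in the replicates (mean 447 ± 100.2, SD, n = 3). Its neighbour, 2590 bp downstream of the same start, ranked 588 in the pooled list and 287, 497 and 3146 in the replicates. The peak 35927 bp from the first TSS varied least for its rank, with 1484, 1288 and 1333 in the replicates against 1202 in the pooled list. In shn-RE, the longest transcript, intron 2 held 8 of the 13 summits, among them that in exon 1 of shn-RB, and intron 1 held the other 5.

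Of the 13 shn peaks 8 were supported in all 3 replicates. Those that were not included 2 neighbouring summits at 36798 and 37001 bp from the first TSS: replicate 1 had an entry within 100 bp of the second only, replicate 3 of the first only and replicate 2 of both. For the peak at 48113 bp replicate 2 had an entry at rank 1512 whose summit was more than 100 bp away. The peaks at 19541 and 37993 bp ranked 7859 and 9094 in replicate 3 and between 2030 and 3312 in the others. No sequence of shn, sax or gbb is printed.

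**Figure D3:**
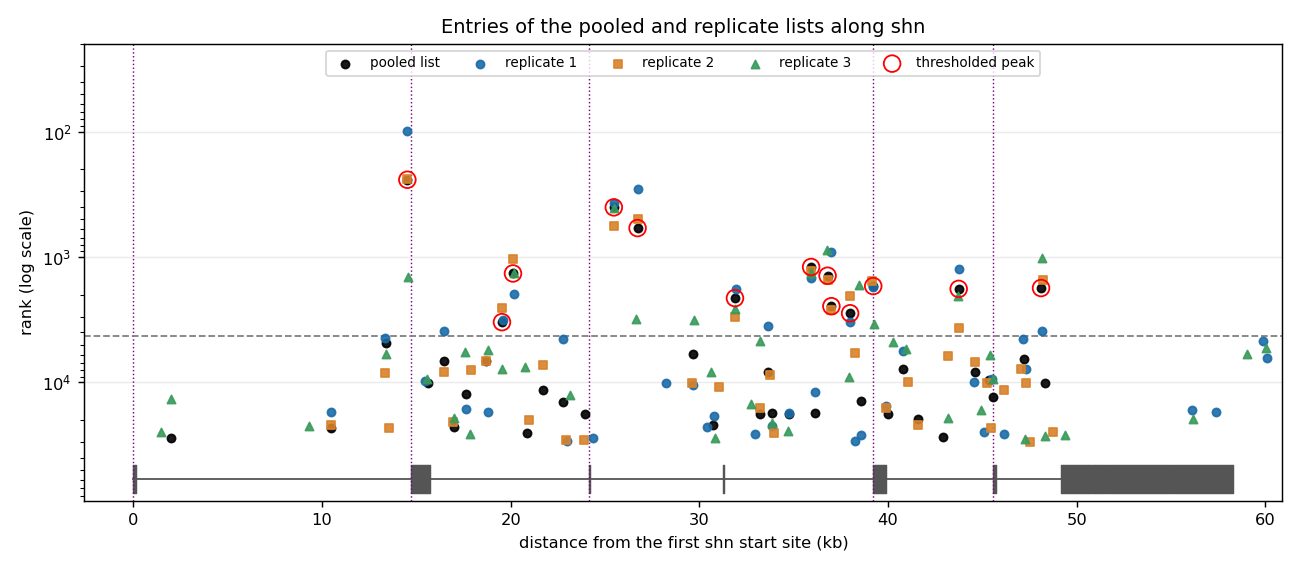
Entries of the pooled list and of the 3 replicates along shn, by distance from its first TSS (kb) and by rank (log scale, strongest at the top). Red circles mark the 13 thresholded peaks, dotted lines the 5 TSSs, grey boxes exons and the dashed line rank 4261. The thresholded peaks lie from 14526 to 48113 bp, and none lies near the first TSS or in the last exon.

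The repressor gene brk, which Shn and the Smads silence, is 3194 bp long and lies on X from 7307939 to 7311132 on the plus strand (FBgn0024250). It sits within CG1677, a gene of the opposite strand that itself had 11 thresholded peaks. Its peak was 867 bp upstream of its TSS, at pooled rank 2038. Replicate 1 had an entry at rank 4499, just past the limit for support. Replicates 2 and 3 had theirs at ranks 1818 and 1203, with summits 752 and 749 bp upstream of the TSS, and so more than 100 bp from the pooled summit. No replicate therefore supported the brk peak as defined, although all 3 had an entry in the same stretch upstream. At the brk TSS an entry 7 bp away ranked 11582 in the pooled list, and it ranked 4803 in replicate 2. The window of the brk peak is shown because the gene is the pathway's main target of silencing, and its capitals mark the forkhead core GTAAACA, beginning 4 bp before the summit.
brk chrX:7306972-7307172 (+): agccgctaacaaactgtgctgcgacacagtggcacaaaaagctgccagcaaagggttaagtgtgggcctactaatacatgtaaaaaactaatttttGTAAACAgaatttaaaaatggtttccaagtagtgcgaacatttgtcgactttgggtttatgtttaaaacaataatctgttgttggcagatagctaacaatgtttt

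The inhibitory Smad gene Dad lies on 3R from 17054007 to 17070408 on the plus strand (FBgn0020493). It had a pair of neighbouring peaks 10258 and 10494 bp downstream of its second TSS, both in intron 5 of the longer transcripts and intron 4 of Dad-RB. The first ranked 464 in the pooled list and 421, 742 and 454 in the replicates (mean 539 ± 177, SD, n = 3). The other ranked 1465 in the pooled list and 1385 and 828 in replicates 1 and 2, and replicate 3 had no entry within 100 bp. The first was thus found in all replicates and the second in 2 of them. At the 2 Dad starts the pooled entries ranked 8712 and 21971, at 60 and 212 bp, and replicate 1 had an entry 381 bp upstream of the first start at rank 3794 that no other list had within 100 bp.

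Both Dad windows are shown because the neighbouring sites differ in base composition and in motifs. The first is 71.6% A and T and holds none of the searched motifs. The second is 49.3% A and T and holds, in capitals and in this order, a GAGA repeat, a Brk site (GGCGCC) and a Mad site, beginning 56 and 23 bp before and 86 bp past the summit.
Dad chr3R:17065055-17065255 (+): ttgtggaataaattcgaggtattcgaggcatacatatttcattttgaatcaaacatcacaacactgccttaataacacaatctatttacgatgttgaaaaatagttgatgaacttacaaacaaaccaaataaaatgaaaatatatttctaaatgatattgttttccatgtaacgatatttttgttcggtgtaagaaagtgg
Dad chr3R:17065291-17065491 (+): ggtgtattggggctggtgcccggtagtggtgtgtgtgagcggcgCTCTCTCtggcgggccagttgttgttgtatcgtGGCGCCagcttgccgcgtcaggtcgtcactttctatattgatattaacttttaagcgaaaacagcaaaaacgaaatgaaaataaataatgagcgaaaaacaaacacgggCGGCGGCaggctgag

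Windows of 201 bp centred on the summits, taken from the RefSeq genome sequence (release 6, the coordinates of dm6), were searched on both strands for 10 motifs. Of the 25 member peaks, 3 held a Mad site (12%), against 6.81% of all 4261 thresholded peaks. The Smad-binding element CAGAC was in 3 (12% against 20.5%), the Brk site in 1 (4% against 3.17%) and the Schnurri-Mad-Medea silencer element in 0, against 0.0235% of all. Of motifs outside the pathway, the GAGA repeat GAGAGAG was in 4 (16% against 7.77%), the DRE TATCGATA in 1 (4% against 1.74%, at gbb), the Stat site TTCNNNGAA in 1 (4% against 5.40%) and the E-box CACGTG in 0 (against 2.63%). The forkhead core GTAAACA was in 3 (12% against 10.1%) and AATATTT in 4 (16% against 18.4%). The last 2 were added after words common in all thresholded peaks had been seen. The Brk site, the DRE, the E-box and the Stat site each read the same on both strands, and the silencer element holds the letters of the Smad-binding element at one end. Median A and T content was 62.2% at the member peaks and 60.7% at all thresholded peaks. These counts of 0 to 4 peaks describe the windows only.

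Support by the replicates was about as common at the members as over the whole list. Of the 25 peaks 13 were supported in all 3 replicates (52%), against 48.5% of all thresholded peaks. Such a peak was found at 6 members, against 16.2% of all genes of any span. For gbb and Med it was the peak at a neighbour's start site. Replicates 1 and 2 each supported 22 of the 25 and replicate 3 supported 16, against 76.8%, 80.0% and 69.7% of all thresholded peaks. The thresholded list holds the strongest entries of the list pooled from the same replicates, so these shares are a description. Over the member peaks with an entry in both replicates, Spearman's rho of the ranks was 0.78 for replicates 1 and 2, over 22 peaks. For replicate 3 it was 0.60 with replicate 1 and 0.62 with replicate 2, over 20 peaks each. These peaks share libraries and, for shn, a gene. Taken alone, the 4261 strongest entries of replicates 1, 2 and 3 gave 8, 9 and 8 members with a peak, against 29.8%, 28.6% and 25% of all genes.

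Replicate entries of that strength with no thresholded summit within 100 bp numbered 18 at the members, 6 in replicate 1, 3 in replicate 2 and 9 in replicate 3. Those of replicate 3 were at tkv (4), shn (2), Dad (2) and brk (1). The Dad entry with the best rank among them, 2095, lay in an intron and ranked 5758 in the pooled list and 15745 in replicate 2. Of the 9, that at brk was also among the strongest entries of another replicate.

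The genes with ranks most like those of the 3 members with the strongest peaks were found by Euclidean distance of the log10 ranks in the pooled list and the 3 replicates. The gbb peak was nearest to a peak shared by Pdrg1 and Pal1 (ranks 29, 27, 39 and 24; distance 0.203) and to that of Atf3 (distance 0.216). The second Med peak was nearest to the peak of the Polycomb group gene ph-p (74, 83, 65 and 71; distance 0.138) and to one shared by Pex11ab and CG8320 (distance 0.144). The strongest shn peak was nearest to those of osp, CG6785 and Pdp1, at distances of 0.442, 0.460 and 0.492. Their ranks in replicate 3 were 806, 709 and 756, each the weakest of that peak. The replicate 3 rank is part of the distance, so this likeness follows from how the genes were chosen.

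Of 29 other genes of the BMP and activin pathways, 12 had a thresholded peak inside or within 2 kb (41.4%), set against 27.6% of all genes. Their median span was 7466 bp, and among all genes of 5 to 10 kb the share was 37.0%. Of the 29, 10 had a peak supported in all 3 replicates, against 16.2% of all genes of any span. Among the receptor and Smad genes, wit, a type II receptor gene, had 3 peaks, the strongest supported peak in an intron at a mean rank of 488 ± 88.6. The activin receptor gene babo had a peak 1157 bp upstream of the gene at 793 ± 236 (SD, n = 3). The activin Smad gene Smox had one 1462 bp upstream at 1135 ± 146 (SD, n = 3). Near the peaks of these 29 genes, start sites of neighbouring genes were not searched. The other ligand genes, scw, daw, myo, mav and Actbeta, had none.

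Genes that shape the ligand gradient were mixed. The BMP antagonist gene sog had 4 peaks, 3 of them supported in all 3 replicates, the best at a mean rank of 1506 ± 761. The glypican genes dally and dlp, whose products carry Dpp at the cell surface, had 6 and 4 peaks. Of these, 1 at dally and 3 at dlp were supported in all 3 replicates, the best at 1161 ± 114 and 447 ± 94.6. The gene magu had 2 peaks, 1 of them so supported, at 289 ± 95.7 (SD, n = 3). By contrast tsg, tld, tok, cv, srw, vkg and Col4a1, for further extracellular factors, had none. The 4 peaks of cv-2 and the Smurf peak were not supported in all 3 replicates. The Smad cofactor gene Snoo had 5 peaks, all supported, the best at 634 ± 181, and lolal had 1 at 1211 ± 457 (SD, n = 3). The Dd peak lay 365 bp downstream of the gene, at 1916 ± 772 (SD, n = 3). The genes Sara, Fs, cmpy, ltl and spict had none.

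Of 23 genes known as targets of the pathway in some fly tissue, 10 had a peak (43.5%), against 27.6% of all genes. Their median span was 12829 bp, and among all genes of 10 to 20 kb the share was 51.3%, above that of the targets. A peak supported in all 3 replicates was found at 5 of the 23, against 16.2% of all genes of any span. The GATA cofactor gene ush had 12 thresholded peaks, more than any member but shn, and 9 of them were supported in all 3 replicates. Its best ranked 5, 4, 6 and 5 in the pooled list and the replicates. The LIM-homeobox gene tup had 2 peaks, the better 1727 bp downstream of the gene at a mean rank of 595 ± 320. The gene bs had 2, the better at 1168 ± 33.8. Doc1 had 1, 418 bp downstream of the gene, at 2298 ± 690, and bi had 1 at 2823 ± 1283 (SD, n = 3). Start sites of neighbouring genes were not searched near the peaks of these 23 genes either. The wing targets salm, salr and vg, and the dorsal targets zen, pnr, Ance and Doc3, had none, nor did Kr, eve, bap, lab, wg and Ubx. The peaks of Doc2, C15, tin, Egfr and nvy were not supported in all 3 replicates.

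**Figure D4:**
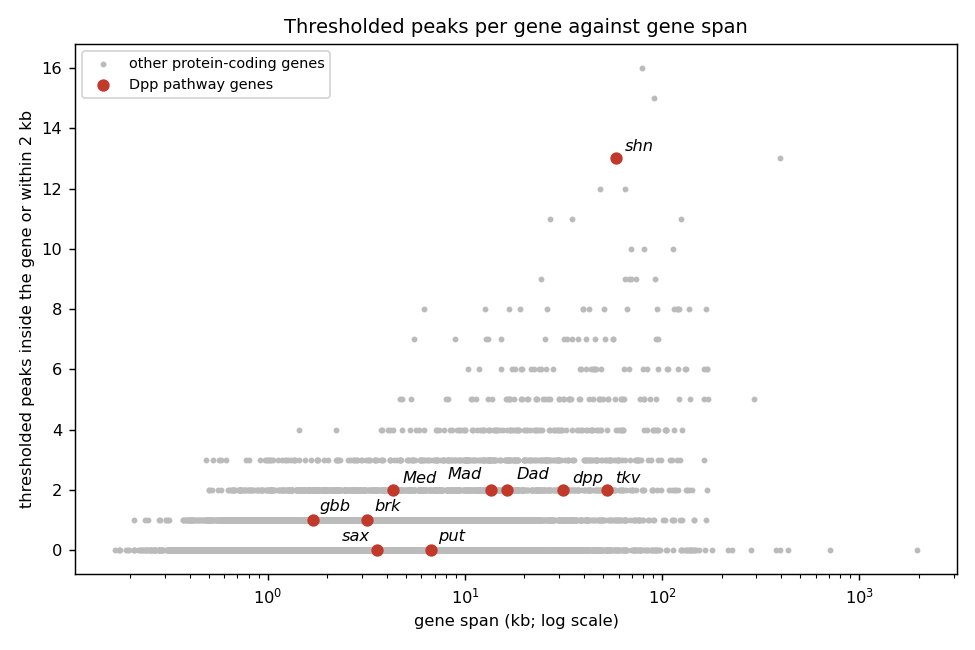
Number of thresholded peaks inside each gene or within 2 kb (y axis) against gene span in kb (x axis, log scale), with the 10 members in red and the other protein-coding genes in grey. The point of shn, with 13 peaks, is topped by 2 genes, and dpp, tkv, Mad, Med and Dad, with 2 each, lie among the others.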

How the data were processed

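Peak positions came from deposited lists for 3 replicates, their pooled alignments and the thresholded set. Per the sample file records, the authors called peaks and background against 1 control on assembly dm6 and thresholded them with the irreproducible discovery rate. The aligner and peak caller are not given in the sources used here. As deposited, the score is the peak caller's signal value, of unstated scale, used only to rank entries within a list. The deposited −log10 q-value was used only to count entries at 0.05 or less. Summits were taken from the offsets in the authors' files. Each list of peaks and background ends at 30000 entries, so list length carries no information.

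Gene models came from Ensembl release 115 and sequence from RefSeq release 6, which share coordinates with dm6. No tests were run: there is 1 group, and labels do not say whether replicates came from separate collections. Members are named in full. Other genes are named when they have a peak supported in all 3 replicates or are counted as lacking one, and the 3 genes nearest in rank to each of the 3 strongest members are given. Members, lists and motifs were chosen with earlier results of these data known. Alternatives were other flanks, TSS windows, support rules and lists, and leaving out each replicate. Computations used Python 3.11.15, NumPy 2.4.6, pandas 2.3.3, SciPy 1.17.1 and matplotlib 3.10.9, and the assignment of peaks to genes was tested on simulated data.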

Additional observations from a re-analysis of the deposited data

How the results depend on the processing

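With other settings the number of members with a peak ranged from 5 to 9. It was 5 without a flank and 5 when each summit counted only for the gene that holds it or lies nearest. The 25 peaks became 13 when support in all 3 replicates was required and 14 to 20 when a replicate was left out, a setting that keeps only peaks supported by both others. Members with a summit at a TSS numbered 1 among the 2130 strongest thresholded peaks, 1 among peaks supported in all 3 replicates, 4 with a window of 1000 bp, 0 with the outermost TSS only, and 1 without any replicate in turn. The 13 peaks supported in all 3 replicates became 8 among the 2000 strongest replicate entries and 14 to 20 without a replicate. Without shn, an alternative added after the data had been seen, there were 12 peaks, 5 of them supported. The other 28 settings of these counts stayed within 1.5 times. Read depth is unknown, replicate 3 has the fewest entries past a q-value of 0.05, and a peak absent there may not have been detectable. No paired analysis was possible because the series has 1 group.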

Other observations

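Strong entries at sax in replicates 1 and 2, at ranks 1820 and 2946, had no counterpart in the pooled list, although that list was called on the alignments of all 3 replicates. Over all genes, 2874 entries among the 4261 strongest of replicate 1 had a summit within 100 bp among those of replicate 2, and 63 of these (2.19%) had no pooled entry with a summit within 370 bp. The cause was not tested.

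The summits of replicates 2 and 3 upstream of brk, at ranks 1818 and 1203, lay within 3 bp of each other and between a pair of pooled summits with ranks of 2038 and 8033.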
